A study of Parasteatoda tepidariorum with 12 samples.

Results

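Embryos of the spider Parasteatoda tepidariorum that had received no treatment were compared between early stage 5, 31 h after egg laying, and stage 3, 20 h after egg laying, the interval over which the germ disc is completed. The members are 4 of the 12 libraries of the series, chosen by their treatment and stage labels, with 2 libraries at early stage 5 and 2 at stage 3. Each library was made from poly(A) RNA of pooled whole embryos of the Osaka isolate kept at 25 °C, and both stages came from the same 2 mated females, 29D and 29G, which had received no double-stranded RNA when these eggs were laid. The other libraries were untreated embryos at stage 2, 11 h after egg laying, and fuchi pRNAi embryos at all 3 stages, laid by these females 18 or 19 days after the first injection of fuchi double-stranded RNA. fuchi (g26874) encodes a GATA-like zinc finger factor, and pRNAi is parental RNA interference, in which the mother is injected and the effect is passed to her eggs.

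The embryo of this spider starts as a yolky egg whose dividing nuclei reach the surface and become cells. Most of these cells gather on the embryonic side into the germ disc. Cells from around the opposite, abembryonic pole stay outside the disc. Cells at the centre of the disc give rise to the cumulus, a group of mesenchymal cells that carries a BMP signal. The cumulus later breaks the radial symmetry of the disc, and cells at the rim express hedgehog. Endoderm forms from both the centre and the rim. In animals generally, the RNA of the earliest embryo is deposited by the mother and is cleared while transcription from the embryo's own genome takes over. Poly(A) RNA of whole embryos therefore holds maternal and zygotic RNA together, and fewer cells of a type cannot be told apart from less RNA per cell in them.

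The 4 libraries held 8136840 and 6169629 counts at early stage 5, against 6967313 and 6406894 counts at stage 3, in each case for 29D before 29G. Of the 27990 gene models in the table, 14498 reached 1 CPM in at least 1 library and were tested. CPM are counts scaled to a common library size, here after adjustment by the trimmed mean of M values (TMM), a method that sets aside the most extreme genes before libraries are matched. Its factors were 0.808 and 0.859 at early stage 5, against 1.049 and 0.968 at stage 3. Markers of tissues that form later made up little RNA, and their part in the results was not tested. Muscle markers, 0 of 22 called higher and 3 lower, summed to 37.9 and 30.0 CPM at early stage 5, against 109 and 106 CPM at stage 3, and neuron markers, 0 of 18 higher and 4 lower, to 53.9 and 45.9 CPM, against 235 and 198 CPM. Blood, fat body and yolk markers, 0 of 11 higher and 1 lower, summed to 104 and 66.8 CPM, against 50.9 and 71.8 CPM, and cuticle, silk and venom genes, 0 of 44 higher and 2 lower, to 206 and 197 CPM, against 640 and 687 CPM. Over all gene models tested 7.49% were called higher and 10.3% lower. At stage 2 the sums were higher in both females, with muscle at 149 and 117 CPM and neurons at 1131 and 791 CPM. Blood, fat body and yolk markers then gave 487 and 501 CPM, and cuticle, silk and venom genes 850 and 881 CPM.

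RNA for making protein rose and a large group of transcripts fell. Most gene models called in either direction were already present at stage 2. At early stage 5, 1086 gene models were called higher (7.49%) and 1500 were called lower (10.3%), so that 17.8% of those tested changed. A call needed an adjusted p below 0.01 in edgeR's quasi-likelihood F test and a fold change of at least 2. The gene models that rose took 42.0% and 38.8% of all counts at early stage 5, against 14.8% and 13.6% at stage 3. Those that fell took 4.13% and 4.09% at early stage 5, against 23.9% and 24.6% at stage 3. The fitted change was at least 4-fold for 491 of the gene models that rose and for 866 of those that fell.

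These counts depended on single libraries, since each stage had 2. Without the early stage 5 library of 29D or of 29G, 641 and 651 gene models were called higher and 800 and 841 lower, and without the stage 3 library of 29D or of 29G, 585 and 515 were called higher and 1104 and 984 lower. Counts in brackets after a gene list give its calls without these 4 libraries in the same order. The p-values measure the spread between pools from 2 females. The split between the directions depended on the scaling: 42.0% of calls were higher after TMM, against 26% when libraries were scaled by their total counts (724 higher and 2057 lower) and 29.0% on log2 of RPKM plus 0.1, where RPKM are counts scaled to library size and gene length, (802 higher and 1961 lower). The median log2 fold change of all gene models tested was -0.045 after TMM, -0.322 under total counts and -0.261 on that RPKM scale, and changes below are relative to TMM.

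**Figure D1:**
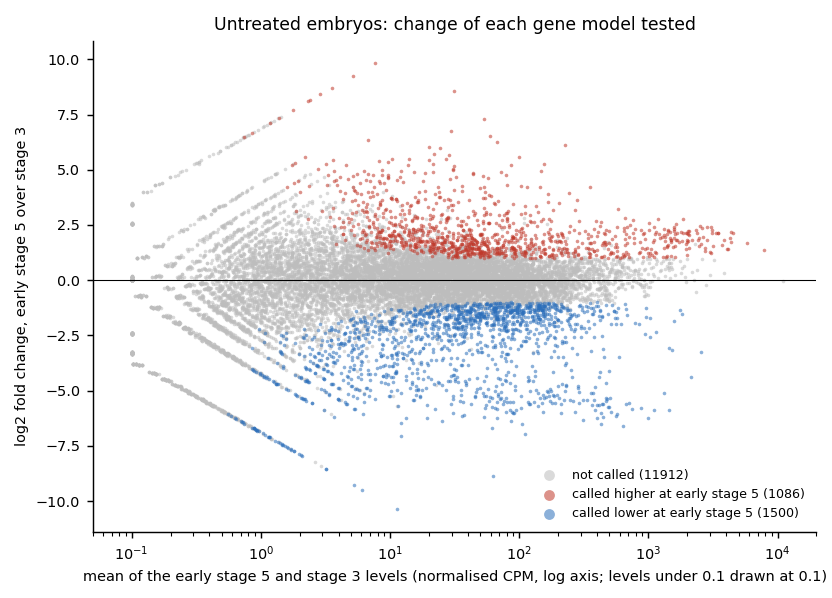
Log2 fold change of every gene model tested in untreated embryos, early stage 5 over stage 3 (vertical axis), against the mean level of the 4 libraries in normalised CPM (horizontal log axis). The 1086 gene models called higher are red, the 1500 called lower are blue and the rest are grey; the fitted change was at least 4-fold for 491 of the red and 866 of the blue points.

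Cytosolic ribosomal proteins, which build the ribosome, rose almost as a block. Of 82 gene models tested, 74, or 90.2%, rose (without 1 library: 69, 71, 71 and 67) and 2, or 2.44%, fell. Over all gene models tested 7.49% rose and 10.3% fell. The median log2 fold change of the list was 2.09. The ribosomal proteins took 18.0% and 14.9% of all counts at early stage 5, against 5.24% and 4.53% at stage 3. The stage 2 libraries gave 1.18% and 1.06%. Among the 50 gene models of highest mean RPKM, a unit scaled to gene length, 41 were cytosolic ribosomal proteins at early stage 5, against 16 at stage 3.

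The ribosomal protein 60S L6 (g7663) stood at 6063 and 5124 CPM at early stage 5, against 1157 and 1402 CPM at stage 3 (log2 fold change 2.13 ± 0.26, adjusted p = 6.06e-05). The other large ones gave the same picture, and no early stage 5 library overlapped a stage 3 library. RNA of 60S L10-like (g4684) stood at 6566 and 4774 CPM, against 1373 and 1204 CPM (log2 fold change 2.14 ± 0.26, adjusted p = 6.79e-05). That of 40S S8 (g7845) was at 8253 and 5237 CPM, against 2076 and 1514 CPM (log2 fold change 1.91 ± 0.28, adjusted p = 0.000242). 40S S10b-like (g25228), a small subunit protein, was at 6774 and 6549 CPM, against 1830 and 2212 CPM (log2 fold change 1.72 ± 0.24, adjusted p = 0.000164). The fusion of ubiquitin and 40S S27a (g26800), which supplies both proteins, stood at 7684 and 7009 CPM, against 1606 and 1781 CPM (log2 fold change 2.12 ± 0.24, adjusted p = 4.14e-05). By p-value the leading members were 60S L9 (g20716, log2 fold change 2.61 ± 0.26), 40S S4 (g14256, 2.17 ± 0.22), 40S S15-like (g21298, 2.09 ± 0.21) and 40S S13 (g1382, 2.4 ± 0.24). The 2 that fell were 60S acidic P1 (g4428, -3.02 ± 0.37) and 40S S11-like (g1351, -1.37 ± 0.32; the call was lost without the early stage 5 library of either female or the stage 3 library of 29D).

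Other parts of the translation machinery rose in part. Of 65 elongation and initiation factors, 20 rose (without 1 library: 10, 10, 7 and 12) and 2 fell. Their median log2 fold change was 0.96, and the list was drawn up after the values were seen. As shares, 30.8% rose and 3.08% fell, against 7.49% and 10.3% of all gene models tested. Elongation factor 1-alpha (g27264), which brings aminoacyl-tRNA to the ribosome, stood at 8820 and 9021 CPM at early stage 5, against 2394 and 3093 CPM at stage 3 (log2 fold change 1.7 ± 0.25, adjusted p = 0.000268). A further copy of the gene (g1688) changed by 1.6 ± 0.23 on the log2 scale, and reads of close copies could not be assigned with certainty. Initiation factor 5 (g7674) rose by 1.95 ± 0.26. Of the proteins that bind initiation factor 4E, g27051 rose by 2.12 ± 0.32, and the other called member, described as an initiation factor 4E-binding protein (g8534), had -1.17 ± 0.27 and the call was lost without the early stage 5 library of either female or the stage 3 library of 29G. The kinase described as eukaryotic translation initiation factor 2-alpha kinase 3 (g10662), which in animals slows initiation under endoplasmic reticulum stress, fell (81.1 and 66.8 CPM at early stage 5, against 261 and 225 CPM at stage 3; log2 fold change -1.71 ± 0.24, adjusted p = 0.000171).

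Single gene models described as RNA-binding proteins rose as well, and no list stands behind these 3. The RNA of a heterogeneous nuclear ribonucleoprotein D-like protein (g1657), of a family that binds RNA in the nucleus and cytoplasm, stood at 12683 and 10145 CPM at early stage 5, against 4519 and 4366 CPM at stage 3 (log2 fold change 1.36 ± 0.21, adjusted p = 0.000354). Polyadenylate-binding protein 4-like (g27712), which coats poly(A) tails, stood at 7164 and 7094 CPM, against 1563 and 1595 CPM (log2 fold change 2.17 ± 0.24, adjusted p = 2.76e-05). Insulin-like growth factor 2 mRNA-binding protein 1 (g11556), a cytoplasmic messenger RNA-binding protein in vertebrates, stood at 1308 and 1149 CPM, against 197 and 237 CPM (log2 fold change 2.5 ± 0.22, adjusted p = 5.14e-06). In each the stages did not overlap. The splicing machinery, which acts on RNA before export, had 5 of 99 members called higher and 3 lower (without 1 library: 1, 7, 2 and 1 higher), with a median of 0.10. These shares, 5.05% and 3.03%, were below the 7.49% and 10.3% of all gene models tested.

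**Figure D2:**
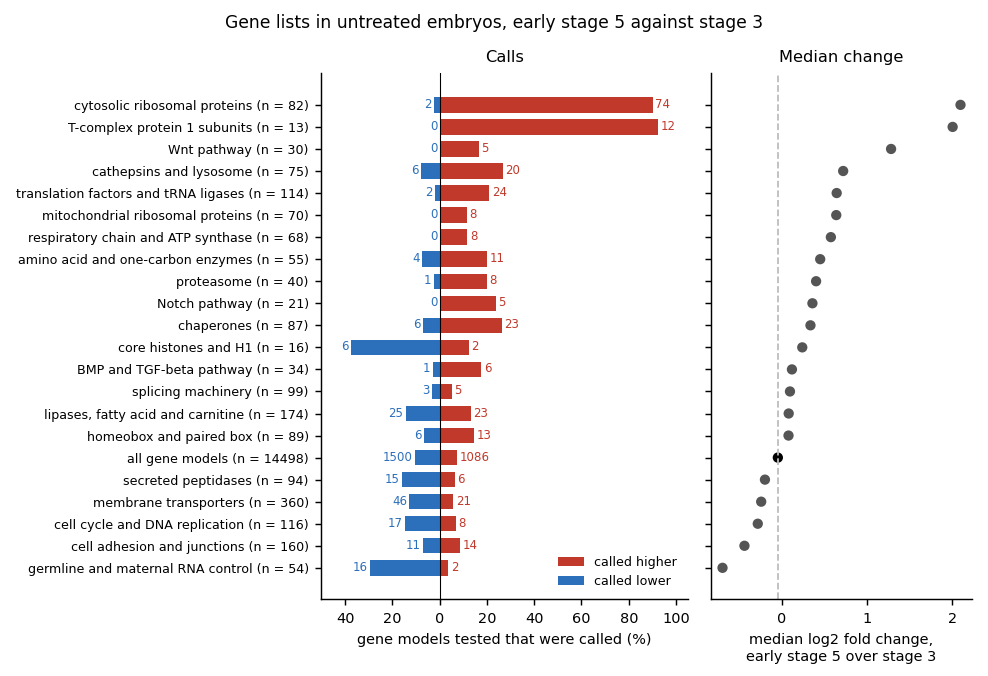
Left, percent of the gene models tested in each list that were called higher (red, to the right) or lower (blue, to the left) at early stage 5, with the number of models beside each bar. Right, median log2 fold change of the list, with the median of all gene models as a dashed line. Cytosolic ribosomal proteins (74 of 82 higher) and T-complex protein 1 subunits (12 of 13 higher) lie farthest to the right. Genes of the germ line and of maternal RNA control (16 of 54 lower) have the lowest median in the right panel. In the left panel core histones and H1 (6 of 16 lower) have the largest share called lower.

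T-complex protein 1 is a ring-shaped chaperonin that folds actin and tubulin, and 12 of its 13 subunit gene models rose (without 1 library: 10, 11, 9 and 9) with a median of 2.00, a list drawn up after the values were seen. Subunit alpha (g4663) stood at 1048 and 1086 CPM at early stage 5, against 221 and 234 CPM at stage 3 (log2 fold change 2.23 ± 0.22, adjusted p = 1.46e-05). Subunit delta (g1884) was at 588 and 769 CPM, against 95.7 and 118 CPM (log2 fold change 2.66 ± 0.26, adjusted p = 1.28e-05). Subunits gamma-like (g17924, 2.43 ± 0.26) and zeta (g14778, 2.09 ± 0.23) rose by similar amounts. Of all 87 chaperones, these included, 23 rose (without 1 library: 14, 17, 13 and 15) and 6 fell (without 1 library: 4, 1, 2 and 5). That is 26.4% and 6.9%, against 7.49% and 10.3% of all gene models tested. Mitochondrial heat shock 70 kDa protein F-like (g358) rose (1101 and 1229 CPM at early stage 5, against 156 and 175 CPM at stage 3; log2 fold change 2.81 ± 0.28, adjusted p = 1.30e-05). The 78 kDa glucose-regulated protein-like model (g5633), a chaperone of the endoplasmic reticulum, was called lower (44.4 and 44.4 CPM, against 186 and 142 CPM; log2 fold change -1.88 ± 0.37, adjusted p = 0.00223). It was not called without the early stage 5 library of either female or the stage 3 library of 29D. Alpha-crystallin A chain-like (g11831), a small heat shock protein, fell (112 and 61.1 CPM, against 508 and 524 CPM; log2 fold change -2.58 ± 0.29, adjusted p = 4.00e-05).

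The proteasome, which breaks down ubiquitin-tagged proteins, had 8 of 40 members called higher (without 1 library: 5, 4, 4 and 5) and 1 lower, with a median of 0.40. This was 20% higher and 2.5% lower, against 7.49% and 10.3% of all gene models tested. By far the largest change belonged to a gene model described as proteasome subunit alpha type-6 (g11804), at 135 and 102 CPM at early stage 5, against 1.51 and 0.968 CPM at stage 3 (log2 fold change 6.55 ± 0.44, adjusted p = 9.30e-07), which was also near 0 at stage 2 (1.31 and 1.31 CPM). It is not typical of the complex: the regulatory subunits 11 (g8105) and 13 (g1302) changed by 1.89 ± 0.25 and 1.71 ± 0.24 on the log2 scale. Of 70 mitochondrial ribosomal proteins 8 rose (without 1 library: 4, 5, 3 and 3), led by 28S S10 (g12379, 1.9 ± 0.28), and of 68 respiratory chain and ATP synthase members 8 rose (without 1 library: 2, 7, 3 and 2), led by cytochrome c (g13715, 2.33 ± 0.32). None of either list fell, and their medians were 0.64 and 0.58. The shares called higher were 11.4% and 11.8%, against 7.49% of all gene models tested.

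The genes known for patterning the germ disc were taken as a list of 12, chosen with earlier results of these data known. Of these 7 were called higher (without 1 library: 4, 4, 5 and 3) and 1 lower. The median log2 fold change was 2.01. As shares the calls were 58.3% higher and 8.33% lower, against 7.49% and 10.3% of all gene models tested. The BMP ligand Pt-dpp (g16926), expressed in the cumulus, stood at 163 and 123 CPM at early stage 5, against 24.1 and 10.2 CPM at stage 3 (log2 fold change 3.05 ± 0.49, adjusted p = 0.000506), and at 51.8 and 75.6 CPM at stage 2. Pt-sog (g23966), a secreted BMP antagonist of the ventral side, stood at 118 and 91.7 CPM at early stage 5, against 7.39 and 18.9 CPM at stage 3 (log2 fold change 3.01 ± 0.54, adjusted p = 0.00118). Without the stage 3 library of 29D it did not pass. Pt-hh (g4322), the Hedgehog ligand of the rim, stood at 198 and 215 CPM, against 74.1 and 82.3 CPM (log2 fold change 1.4 ± 0.34, adjusted p = 0.00698). Its libraries did not overlap between stages. Leaving out any 1 of the 4 libraries ended the call.

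Of the homeobox and Pax genes of this list, 4 of 5 were called higher. Pt-msx1 (g15189), a muscle segment homeobox factor used in spider segmentation, stood at 55.4 and 34.5 CPM at early stage 5, against 3.83 and 1.78 CPM at stage 3 (log2 fold change 3.98 ± 0.7, adjusted p = 0.000993). The call was lost without the stage 3 library of 29G. Pt-otd (g9172), an orthodenticle factor of the head region, stood at 130.1 and 74.7 CPM, against 10.7 and 2.10 CPM (log2 fold change 3.98 ± 0.92, adjusted p = 0.00560). It was not called without the early stage 5 library of either female or the stage 3 library of 29G. The Pax gene Pt-prd2 (g18397) was near 0 at stage 3 (15.98 and 17.7 CPM, against 0.548 and 0.484 CPM; log2 fold change 4.98 ± 0.73, adjusted p = 0.000251). Pt-BarH1 (g8250), a Bar-type homeobox factor, stood at 226 and 238 CPM, against 113 and 60.5 CPM (log2 fold change 1.42 ± 0.29, adjusted p = 0.00284). Without the early stage 5 library of either female or the stage 3 library of 29G it did not pass.

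The mesoderm factor Pt-twi (g14287), homologue of the Drosophila mesoderm gene twist, was the called fall of this list, at 4.72 and 1.32 CPM at early stage 5, against 19.4 and 23.4 CPM at stage 3 (log2 fold change -2.79 ± 0.54, adjusted p = 0.00180). Leaving out the early stage 5 library of 29G or the stage 3 library of 29G ended the call. The remaining 4 did not pass. Pt-Delta (g25248), a Notch ligand, had 282 and 364 CPM, against 170.4 and 175 CPM (adjusted p = 0.0592). The forkhead factor Pt-fkh (g6985) had 194 and 178 CPM, against 25.3 and 36.1 CPM (adjusted p = 0.0132). The Hox gene Pt-lab1 (g7954) had 263 and 206 CPM, against 220.1 and 213 CPM (adjusted p = 0.893) and the cumulus factor Pt-Ets4 (g4238) 68.9 and 71.9 CPM, against 111 and 99.1 CPM (adjusted p = 0.442). The stages did not overlap for Pt-fkh, whose fitted difference of 6.05-fold missed the threshold.

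**Figure D3:**
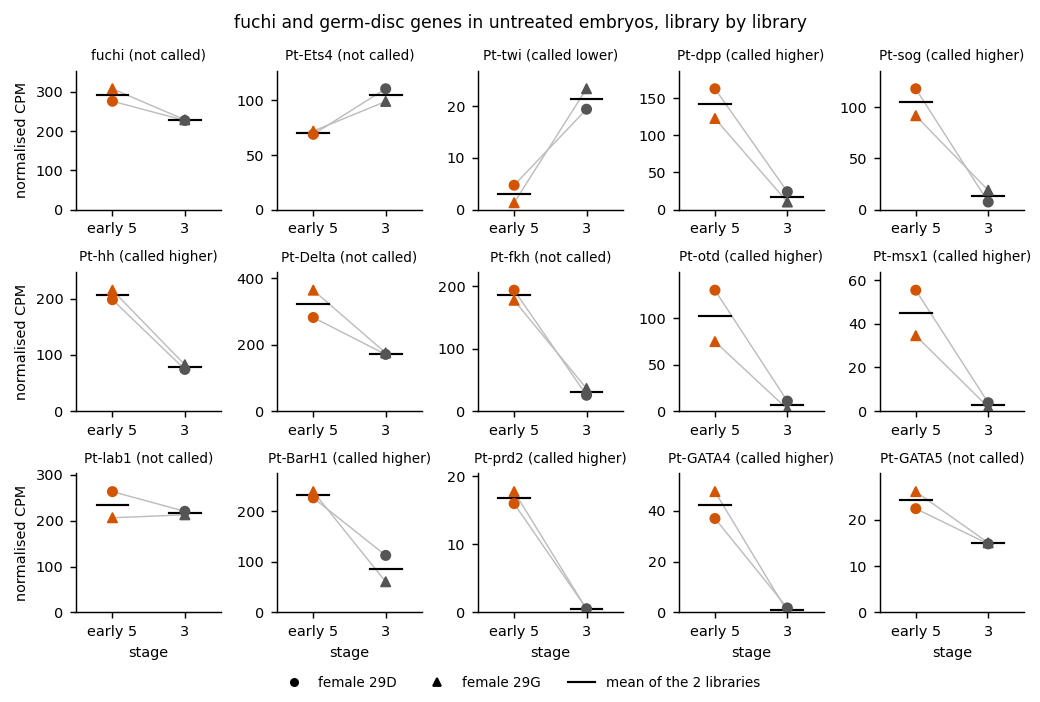
Normalised CPM of fuchi, the 12 germ-disc patterning genes and 2 further GATA genes in the untreated libraries, early stage 5 left of stage 3 in each panel, with circles for female 29D, triangles for female 29G and a black bar for the mean; each panel has its own axis from 0. Pt-dpp, with 163 and 123 CPM against 24.1 and 10.2 CPM, and the other called genes show both early stage 5 points on one side of both stage 3 points.

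Among the GATA factors, zinc finger proteins that act in endoderm and blood in many animals, 1 of 8 rose. This was Pt-GATA4 (g25261), at 37.0 and 47.6 CPM at early stage 5, against 1.78 and 0.323 CPM at stage 3 (log2 fold change 5.27 ± 0.77, adjusted p = 0.000242). fuchi itself had 276 and 308 CPM, against 227 and 229 CPM (adjusted p = 0.393), and Pt-GATA5 (g8337) had 22.4 and 26.04 CPM, against 14.8 and 15.0 CPM (adjusted p = 0.507). The GATA shares were 12.5% higher and 0% lower, against 7.49% and 10.3% of all gene models tested. Of the genes the study picked for expression at the centre of the stage 3 germ disc, 1 of 10 rose and 2 fell. These are 10% and 20% of that list. The riser was the EF-hand domain-containing protein D2 model (g15167), of a family that binds calcium (267 and 225 CPM, against 22.5 and 24.7 CPM; log2 fold change 3.38 ± 0.33, adjusted p = 1.14e-05). The orthopedia-like homeobox model (g16467) had 0.913 and 0.755 CPM, against 7.39 and 6.94 CPM and the call was lost without any 1 of the 4 libraries, and the other fall was Pt-twi. None of 5 genes picked for the periphery was called, with adjusted p from 0.238 to 0.999. Of 4 picked for both regions 2 were called lower, the undescribed g18041 (-3.09 ± 0.59; the call was lost without the early stage 5 library of either female or the stage 3 library of 29D) and the zinc finger protein 271-like g4752 (-1.26 ± 0.25; the call was lost without the early stage 5 library of either female or the stage 3 library of 29D).

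Notch signalling passes between touching cells, and 5 of 21 members tested rose (without 1 library: 3, 4, 4 and 4) with none lower and a median of 0.36. The share that rose was 23.8%, against 7.49% of all gene models tested. The ligand described as neurogenic locus protein delta-like (g12734), a different gene from Pt-Delta, stood at 173 and 235 CPM at early stage 5, against 26.7 and 12.1 CPM at stage 3 (log2 fold change 3.38 ± 0.39, adjusted p = 4.19e-05), with 130 and 112 CPM at stage 2. Both models of a jagged-1-like ligand, which map to 1 NCBI gene, were called higher. The model g9162 had 78.4 and 85.9 CPM, against 8.21 and 16.8 CPM (log2 fold change 2.72 ± 0.43, adjusted p = 0.000424), and g9161 had 21.9 and 18.5 CPM, against 2.05 and 5.33 CPM. The call was lost without the early stage 5 library of either female or the stage 3 library of 29D. The Notch-regulated ankyrin repeat-containing protein-like gene (g15506), a feedback regulator and Notch target in vertebrates, stood at 37.9 and 68.9 CPM, against 1.51 and 0.807 CPM (log2 fold change 5.49 ± 0.63, adjusted p = 4.12e-05). The fifth was neuralized-like protein 2 (g17180, 2.03 ± 0.37), of a family that promotes uptake of Notch ligands; the call was lost without the early stage 5 library of 29D or the stage 3 library of 29G. The receptor models g21218 and g27737 had log2 fold changes of 0.36 ± 0.25 and 0.98 ± 0.3 and were not called.

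BMP and TGF-beta signalling had 6 of 34 members called higher (without 1 library: 2, 3, 2 and 4) and 1 lower, with a median of 0.12. As shares these were 17.6% and 2.94%, against 7.49% and 10.3% of all gene models tested. Besides Pt-dpp the 5 called higher were an inhibitory SMAD, noggin and BAMBI models, a ligand and a kielin/chordin-like protein. Of these the SMAD alone kept its call without each library in turn. Inhibitory SMAD 6 (g5567), which blocks signalling inside the cell, stood at 31.8 and 44.0 CPM at early stage 5, against 5.34 and 4.84 CPM at stage 3 (log2 fold change 2.89 ± 0.38, adjusted p = 0.000115). Noggin-2-like (g17729), named after secreted proteins that sequester BMP ligands, stood at 64.7 and 94.7 CPM, against 2.88 and 17.9 CPM (log2 fold change 2.95 ± 0.69, adjusted p = 0.00625). It was not called without the early stage 5 library of either female or the stage 3 library of 29D. The pseudoreceptor BAMBI homologue (g17346) stood at 60.6 and 37.7 CPM, against 8.21 and 5.16 CPM (log2 fold change 2.87 ± 0.67, adjusted p = 0.00590). Without any 1 of the 4 libraries it did not pass. The remaining risers were a BMP 2-A-like ligand (g15032, 2.86 ± 0.53; the call was lost without the early stage 5 library of either female or the stage 3 library of 29D) and a kielin/chordin-like protein (g11772, 4.43 ± 0.8; the call was lost without the early stage 5 library of 29D or the stage 3 library of either female).

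The BMP member that fell lies beside Pt-dpp. A gene model described as bone morphogenetic protein 10-like (g16925, Scaffold2360:10506-16988) precedes Pt-dpp (g16926, Scaffold2360:31486-100705) on the same strand, in coordinates of the Ptep_1.0 assembly. It stood at 4.41 and 2.45 CPM at early stage 5, against 169 and 113 CPM at stage 3 (log2 fold change -5.33 ± 0.45, adjusted p = 4.36e-06), and at 258 and 243 CPM at stage 2. The signal transducer mothers against dpp (g26552, -0.16 ± 0.26) and SMAD 4 (g16672, 0.4 ± 0.27) were not called.

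Wnt ligands and their regulators had 5 of 30 members called higher (without 1 library: 3, 5, 4 and 3) and none lower, with a median of 1.28 (1.13 with genes at 0 in 1 stage held at their bounds). The share called higher was 16.7%, against 7.49% of all gene models tested. The ligand Wnt-8b-like (g5617) stood at 73.8 and 97.0 CPM at early stage 5, against 2.74 and 3.07 CPM at stage 3 (log2 fold change 4.87 ± 0.71, adjusted p = 0.000252). Secreted frizzled-related protein 5, which binds Wnt ligands outside the cell in vertebrates, had 2 gene models of 1 NCBI gene. The model g4876 had 53.1 and 43.0 CPM, against 5.48 and 8.23 CPM (log2 fold change 2.81 ± 0.37, adjusted p = 0.000123) and g4877 had 23.4 and 18.7 CPM, against 3.56 and 5.49 CPM (log2 fold change 2.22 ± 0.4, adjusted p = 0.00124). Leaving out the early stage 5 library of 29D or the stage 3 library of 29D ended the call. The pangolin-like model g10429, a TCF-type factor that acts at the end of the pathway, stood at 238 and 295 CPM, against 108 and 94.1 CPM (log2 fold change 1.4 ± 0.24, adjusted p = 0.000765). The call was lost without the stage 3 library of 29G. A Wnt-5b-like ligand (g1632) was called at low levels (17.4 and 7.93 CPM, against 1.37 and 0.161 CPM). It was not called without the early stage 5 library of 29D or the stage 3 library of 29G. The receptors frizzled-7-B-like (g4007, -0.98 ± 0.27) and frizzled-5-like (g4009, -0.4 ± 0.28) and the armadillo-like transducer (g10093, 0.3 ± 0.22) were not called.

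Among FGF, EGF and Toll signals 4 of 30 rose (without 1 library: 3, 2, 3 and 2) and 2 fell (without 1 library: 0, 1, 1 and 1). All gene models tested gave 7.49% and 10.3%, and this list 13.3% and 6.67%. The FGF8-like ligand (g5611) stood at 153 and 129 CPM at early stage 5, against 39.97 and 29.4 CPM at stage 3 (log2 fold change 2.02 ± 0.28, adjusted p = 0.000162). The giant-lens-like model (g839), homologue of a secreted EGF receptor inhibitor of Drosophila, stood at 15.4 and 15.7 CPM, against 1.37 and 1.29 CPM (log2 fold change 3.53 ± 0.5, adjusted p = 0.000211). The EGF-type ligand spitz (g19827, 1.89 ± 0.39; the call was lost without the early stage 5 library of either female or the stage 3 library of 29G) and the Toll-type ligand spaetzle 5 (g8985, 2.36 ± 0.47; the call was lost without the early stage 5 library of 29G or the stage 3 library of either female) were also called higher. A toll-like receptor 6 model (g494, -3.94 ± 0.74; the call was lost without the early stage 5 library of 29D or the stage 3 library of 29G) and a sprouty-related inhibitor (g8979, -1.3 ± 0.29; the call was lost without the early stage 5 library of either female or the stage 3 library of 29D) were called lower. In the Hedgehog pathway Pt-hh was the only one of 8 called; the receptor patched-like (g14374) had 0.86 ± 0.33, smoothened (g8490) -0.38 ± 0.23 and suppressor of fused (g4889) -1.02 ± 0.26 on the log2 scale.

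Of 89 homeobox and paired box genes, 13 rose (without 1 library: 7, 8, 10 and 6) and 6 fell (without 1 library: 1, 2, 4 and 3), with a median of 0.08. Their shares were 14.6% and 6.74%, against 7.49% and 10.3% of all gene models tested. An engrailed-like homeobox gene (g15243) stood at 81.1 and 119.6 CPM at early stage 5, against 10.8 and 4.36 CPM at stage 3 (log2 fold change 3.71 ± 0.41, adjusted p = 3.27e-05). The Pax gene described as gooseberry (g11337), another model beside Pt-prd2 with that description, stood at 18.7 and 14.5 CPM, against 0.548 and 0.645 CPM (log2 fold change 4.77 ± 0.7, adjusted p = 0.000266). Extradenticle (g20631), a partner of Hox proteins, was at 168 and 137 CPM, against 31.8 and 18.9 CPM (log2 fold change 2.59 ± 0.32, adjusted p = 7.74e-05). The smallest p among the falls belonged to a homeobox protein CUP9 model (g10009), at 78.1 and 54.2 CPM, against 369 and 274 CPM (log2 fold change -2.28 ± 0.29, adjusted p = 9.48e-05).

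Among 55 forkhead, SOX, T-box, bHLH, runt and nuclear receptor genes, 5 rose (without 1 library: 3, 4, 3 and 3) and 6 fell (without 1 library: 4, 3, 4 and 4), shares of 9.09% and 10.9% near those of all gene models tested. A HES-1-A gene (g17723), of the bHLH repressors that respond to Notch, stood at 46.7 and 49.3 CPM at early stage 5, against 0.411 and 1.13 CPM at stage 3 (log2 fold change 5.97 ± 0.66, adjusted p = 4.58e-05). HES-7.1-like (g20968) was at 56.9 and 37.9 CPM, against 7.39 and 6.29 CPM (log2 fold change 2.79 ± 0.45, adjusted p = 0.000543). T-box 20-like (g11865) stood at 69.3 and 89.3 CPM, against 10.7 and 7.58 CPM (log2 fold change 3.11 ± 0.39, adjusted p = 7.35e-05). The falls included the bHLH gene achaete-scute homologue 1a (g27206, -3.35 ± 0.45), forkhead box N4-like (g19784, -3.01 ± 0.33) and SOX-11 (g12938, -1.46 ± 0.22), all 3 kept without each library in turn.

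A list of 10 genes was chosen by the study on these libraries for their dependence on fuchi, so their direction here is not independent evidence. Of these, 5 rose (without 1 library: 4, 5, 5 and 4) and none fell, with a median of 2.06. That is 50% and 0%, against 7.49% and 10.3% of all gene models tested. The gene model g12453 stood at 564 and 785 CPM at early stage 5, against 37.6 and 35.0 CPM at stage 3 (log2 fold change 4.21 ± 0.31, adjusted p = 5.10e-06) and had no count at stage 2, but it overlaps g12454 and g12455 and its level is uncertain. Platelet glycoprotein 4-like (g486), of a family of lipid scavenger receptors, stood at 231 and 277 CPM, against 37.1 and 41.0 CPM (log2 fold change 2.7 ± 0.33, adjusted p = 7.09e-05). An enzyme of carnitine synthesis, gamma-butyrobetaine dioxygenase (g26914), stood at 256 and 241 CPM, against 25.1 and 33.1 CPM (log2 fold change 3.1 ± 0.39, adjusted p = 7.78e-05). The undescribed g27539 was at 259.8 and 268 CPM, against 39.3 and 39.1 CPM (log2 fold change 2.75 ± 0.31, adjusted p = 5.69e-05). Holotricin-3-like (g17950) stood at 1605 and 1052 CPM, against 252 and 151 CPM (log2 fold change 2.72 ± 0.54, adjusted p = 0.00227). Without the early stage 5 library of 29D or the stage 3 library of 29G it did not pass. The uncharacterized g1125 was already high at stage 3 (151 and 216 CPM, against 121 and 206 CPM; adjusted p = 0.852) and was not called.

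A list of 75 cathepsins and lysosomal or related glycan-cleaving enzymes was drawn by keyword and also took in enzymes of the Golgi. Of these 20, or 26.7%, rose (without 1 library: 14, 11, 12 and 12) and 6, or 8%, fell (without 1 library: 3, 3, 5 and 3), against 7.49% and 10.3% of all gene models tested, with a median of 0.72. Dipeptidyl peptidase 1 (g3230), the lysosomal protease cathepsin C, stood at 264 and 290.2 CPM at early stage 5, against 11.1 and 18.4 CPM at stage 3 (log2 fold change 4.23 ± 0.38, adjusted p = 6.00e-06). Cathepsin L1-like (g9137), a further protease of the lysosome, was at 303 and 321 CPM, against 20.0 and 21.6 CPM (log2 fold change 3.91 ± 0.4, adjusted p = 1.57e-05). Group XV phospholipase A2 (g15560, 2.75 ± 0.33) and lysosomal protective protein (g25833, 2.13 ± 0.25) also rose. The falls included lysosome membrane protein 2 (g485, -3.28 ± 0.37), the neighbour of g486 by number, and alpha-mannosidases 2 (g7827, -2.18 ± 0.33) and 2x (g23969, -2.1 ± 0.34), which trim sugars in the Golgi and not in the lysosome.

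Of 174 lipases, fatty acid and carnitine genes, 23, or 13.2%, rose (without 1 library: 13, 14, 10 and 12) and 25, or 14.4%, fell (without 1 library: 12, 13, 16 and 16), with a median of 0.08. Over all gene models tested 7.49% rose and 10.3% fell. Long-chain fatty acid CoA ligase 6 (g3295), which activates fatty acids, stood at 108 and 156 CPM at early stage 5, against 1.37 and 2.10 CPM at stage 3 (log2 fold change 6.25 ± 0.51, adjusted p = 3.20e-06). A fatty acid-binding protein-like gene (g21231) stood at 131.8 and 172 CPM, against 6.16 and 4.84 CPM (log2 fold change 4.78 ± 0.42, adjusted p = 5.26e-06). Another (g24515) was at 116 and 165 CPM, against 6.71 and 2.42 CPM (log2 fold change 4.92 ± 0.51, adjusted p = 4.58e-05). Among the falls was a very-long-chain 3-oxoacyl-CoA reductase (g14346, 0.304 and 0.189 CPM, against 24.6 and 23.1 CPM; log2 fold change -6.47 ± 0.48, adjusted p = 1.56e-06), which lengthens fatty acids. Fatty acyl-CoA reductases 1-like (g16407, -4.66 ± 0.42; g26758, -4.56 ± 0.33), which make fatty alcohols, fell too. A phospholipase A2-like gene (g27753) fell by 6.16 on the log2 scale.

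Genes that were nearly silent at stage 2 gave some of the largest rises. Acetoacetyl-CoA synthetase-like (g27733), which activates the ketone body acetoacetate, stood at 61.8 and 56.2 CPM at early stage 5, against 0.274 and 0.807 CPM at stage 3 (log2 fold change 6.77 ± 0.56, adjusted p = 5.68e-06), with no count at stage 2. The BTB/POZ domain-containing protein 9-like model (g25858), of a family of adaptor proteins, stood at 382 and 516 CPM, against 4.79 and 8.23 CPM (log2 fold change 6.11 ± 0.48, adjusted p = 2.11e-06). A motile sperm domain-containing protein 2-like model (g7794) stood at 33.5 and 45.5 CPM, against 0.821 and 0.968 CPM (log2 fold change 5.44 ± 0.49, adjusted p = 6.05e-06). Transferrin-like (g26148), an iron carrier, was at 88.1 and 82.3 CPM, against 3.97 and 2.10 CPM (log2 fold change 4.79 ± 0.38, adjusted p = 2.11e-06). At stage 2 these last 3 stood between 0 and 0.522 CPM.

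Of 55 amino acid and one-carbon enzymes 11, or 20%, rose (without 1 library: 7, 7, 5 and 7) and 4, or 7.27%, fell. Of the glycine cleavage system, which breaks glycine down to supply one-carbon units, glycine dehydrogenase (g18848) stood at 305 and 357 CPM at early stage 5, against 33.4 and 38.6 CPM at stage 3 (log2 fold change 3.2 ± 0.34, adjusted p = 2.18e-05). Aminomethyltransferase-like (g8301) was at 96.8 and 100.2 CPM, against 10.5 and 13.9 CPM (log2 fold change 3.01 ± 0.4, adjusted p = 0.000182). The H protein (g16375) of the same system was at 113 and 94.6 CPM, against 27.4 and 23.1 CPM (log2 fold change 2.04 ± 0.28, adjusted p = 0.000164). Ornithine aminotransferase-like (g6337, -3.21 ± 0.36) and phosphoserine aminotransferase (g22552, -2.71 ± 0.36) fell. Of 360 membrane transporters 21 rose (without 1 library: 13, 13, 11 and 13) and 46 fell (without 1 library: 23, 25, 34 and 34), with a median of -0.24. Their shares of 5.83% and 12.8% were near the 7.49% and 10.3% of all gene models tested. An equilibrative nucleoside transporter 1-like gene (g7477, 5.57 ± 0.71) rose. Monocarboxylate transporter 12-like (g9963), of a family that carries small organic acids, fell (43.1 and 33.2 CPM at early stage 5, against 661 and 936 CPM at stage 3; log2 fold change -4.39 ± 0.27, adjusted p = 8.59e-07).

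Cytoskeletal genes were called at shares near those of all gene models tested, 7.49% higher and 10.3% lower, and are given for their single members. Of 110 actin and myosin genes 12 rose (without 1 library: 9, 8, 6 and 7) and 12 fell (without 1 library: 9, 8, 10 and 7), 10.9% each. The actin gene g27982 stood at 799 and 675 CPM at early stage 5, against 124 and 115 CPM at stage 3 (log2 fold change 2.62 ± 0.26, adjusted p = 1.49e-05). Cofilin (g25510), which severs actin filaments, was at 966 and 944 CPM, against 214 and 145 CPM (log2 fold change 2.41 ± 0.3, adjusted p = 7.78e-05). Moesin/ezrin/radixin homologue 1 (g25208, 2.07 ± 0.25), which ties actin to the membrane, and actin-related protein 2 (g1303, 1.76 ± 0.25), which starts branches, also rose. Septin-7 (g9025), a filament-forming GTPase, stood at 369.8 and 376 CPM, against 38.5 and 28.4 CPM (log2 fold change 3.48 ± 0.32, adjusted p = 6.64e-06). Spectrin alpha chain (g3038, -1.77 ± 0.25) and 2 paramyosin models (g19654, -4.61 ± 0.57; g16258, -4.26 ± 0.51), a muscle protein, fell.

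Of 130 tubulin, kinesin and dynein genes, 8 rose (without 1 library: 4, 4, 3 and 2) and 16 fell (without 1 library: 6, 6, 10 and 8), 6.15% and 12.3%. A tubulin beta chain (g12244) stood at 749 and 628 CPM at early stage 5, against 1660 and 3258 CPM at stage 3 (log2 fold change -1.84 ± 0.38, adjusted p = 0.00278). Leaving out the early stage 5 library of either female or the stage 3 library of 29G ended the call. Among 160 cell adhesion and junction genes 14 rose (without 1 library: 11, 10, 8 and 11) and 11 fell (without 1 library: 3, 4, 6 and 6), 8.75% and 6.88%. Fasciclin-2 (g11491, 2.23 ± 0.26) and teneurin-m (g11824, 2.21 ± 0.28), homophilic adhesion molecules of the nervous system in Drosophila, rose. The polarity protein crumbs-like (g13595, -1.42 ± 0.23) and neurexin-4 (g25611, -1.8 ± 0.25), of insect septate junctions, fell. Semaphorin-5A (g26377), a guidance protein, rose to 109 and 161 CPM at early stage 5, against 19.9 and 14.7 CPM at stage 3 (log2 fold change 2.96 ± 0.27, adjusted p = 7.63e-06), and stood at 216 and 173 CPM at stage 2. Its level at stage 3 was thus the lowest of the 3 stages in both females.

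The transcripts that fell were in large part abundant at stage 2. Of the 1500, 94.9% stood at 1 CPM or more in both stage 2 libraries, against 72.6% of all gene models tested. At least 100 CPM in both was reached by 604, or 40.3%, against 14%. Of the 1086 that rose, 80.2% reached 1 CPM and 19.7% reached 100 CPM in both stage 2 libraries. A call lower needs RNA at stage 3, and 0 of the 1500 were under 1 CPM in both stage 3 libraries, against 13.3% of all. Their higher stage 2 levels therefore follow in part from the call itself. The median over these gene models of the mean level was 84.0 CPM at stage 2, 62.9 CPM at stage 3 and 11.2 CPM at early stage 5. For the 1086 that rose the medians were 30.9, 18.0 and 66.6 CPM, and 176 of them, or 16.2%, were under 1 CPM in both stage 2 libraries, against 20.7% of all. All gene models tested had medians of 16.2, 12.6 and 12.6 CPM at the 3 stages. The stage 2 libraries entered the fit in the shared estimate of spread, in the TMM scaling and in the 1 CPM filter. No change between stages 2 and 3 was tested. Gene models that are uncharacterized or undescribed made up 33.7% of those that fell and 15.2% of those that rose, against 27.8% of all tested.

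**Figure D4:**
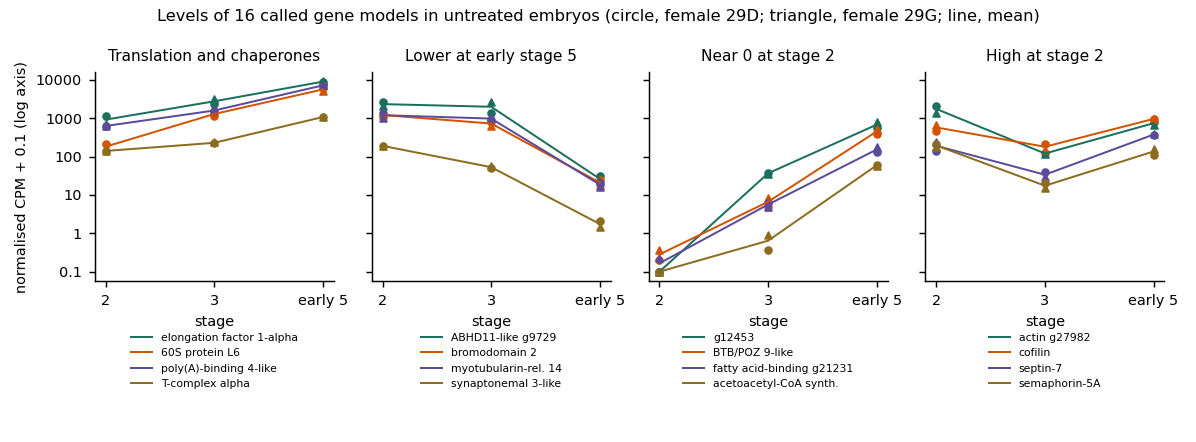
Levels of 16 called gene models in the untreated libraries at stages 2, 3 and early 5, as normalised CPM plus 0.1 on a log axis, with circles for female 29D, triangles for female 29G and lines through the means. The genes of the second panel are lowest at early stage 5, the genes of the third panel are near 0 at stage 2, and septin-7 and semaphorin-5A of the last panel are lowest at stage 3.

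The falls with the smallest p-values included RNA of nuclear and signalling proteins. Bromodomain-containing protein 2 (g13141), a reader of acetylated histones, stood at 24.1 and 17.6 CPM at early stage 5, against 806 and 638 CPM at stage 3 (log2 fold change -5.11 ± 0.3, adjusted p = 6.99e-07). Myotubularin-related protein 14 (g27978), a phosphoinositide phosphatase, stood at 20.9 and 16.04 CPM, against 881 and 1065 CPM (log2 fold change -5.72 ± 0.35, adjusted p = 8.59e-07). A further model of this name (g15186) was at 448 and 155 CPM, against 2246 and 2899 CPM (log2 fold change -3.09 ± 0.41, adjusted p = 0.000122). Synaptonemal complex protein 3-like (g5144), named after a meiotic chromosome protein of vertebrates, stood at 1.98 and 1.32 CPM, against 50.4 and 55.02 CPM (log2 fold change -4.96 ± 0.32, adjusted p = 9.30e-07). At stage 2 g13141 had 1170 and 1242 CPM, g27978 1392 and 992 CPM and g5144 192 and 187 CPM, all above their early stage 5 levels.

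Gene models with other descriptions fell too. A zinc finger protein 1-like gene (g6237) stood at 15.1 and 12.6 CPM at early stage 5, against 601 and 609 CPM at stage 3 (log2 fold change -5.44 ± 0.3, adjusted p = 6.51e-07). Acetylcholinesterase-1-like (g6760), named after the enzyme that clears acetylcholine, was at 30.1 and 19.8 CPM, against 972 and 1010 CPM (log2 fold change -5.31 ± 0.35, adjusted p = 9.30e-07). An ABC transporter G member 8-like gene (g21327), of a family that exports sterols in vertebrates, was at 6.39 and 3.02 CPM, against 240.1 and 358 CPM (log2 fold change -5.96 ± 0.4, adjusted p = 9.30e-07). A serine protease gene (g26402) stood at 10.4 and 9.62 CPM, against 402 and 464 CPM (log2 fold change -5.43 ± 0.36, adjusted p = 9.30e-07). The serine protease nudel (g12963), whose Drosophila homologue is maternal and acts in dorsal-ventral patterning, had 2.59 and 1.32 CPM, against 25.5 and 21.0 CPM (log2 fold change -3.53 ± 0.43, adjusted p = 6.28e-05). The largest differences of CPM included g14946 (64.2 and 33.2 CPM, against 2426 and 3233 CPM; log2 fold change -5.86 ± 0.4, adjusted p = 9.55e-07), annotated as a proline-rich cell wall protein. The uncharacterized g10345, g17931 and g9251 changed by -6.39 ± 0.32, -5.95 ± 0.31 and -5.59 ± 0.32 on the log2 scale.

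ABHD11-like gene models, which encode alpha/beta hydrolases, were a list drawn up after their values were seen. Of 23 tested, 9 fell (without 1 library: 9, 8, 8 and 8) and 1 was called higher, g9210, where the call was lost without any 1 of the 4 libraries. The median was -3.54, or -1.69 with models at 0 in 1 stage held at their bounds. Against 10.3% lower and 7.49% higher among all gene models tested, this list had 39.1% and 4.35%. Those with most RNA at stage 3 were g9729, at 31.2 and 21.0 CPM at early stage 5, against 1376 and 2575 CPM at stage 3 (log2 fold change -6.24 ± 0.42, adjusted p = 9.30e-07), and g9727, at 56.2 and 17.4 CPM, against 2228 and 2152 CPM (log2 fold change -5.89 ± 0.53, adjusted p = 6.32e-06). The model g3607 was at 40.03 and 23.0 CPM, against 1620 and 1842 CPM (log2 fold change -5.77 ± 0.37, adjusted p = 9.00e-07). These gene models share a description, their sequences were not compared, and how reads were shared among them is uncertain.

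Several falls lay side by side in the genome. Of the 1500 gene models that fell, 421, or 28.1%, stood in 177 runs of at least 2 neighbours called lower without another tested model between them, and the longest run held 9. Of the 1086 that rose, 174, or 16%, stood in 81 runs, and the longest held 5. These shares rest in part on the share called in each direction, 10.3% lower and 7.49% higher, and what unordered calls would give was not computed. Some neighbours are split models of 1 gene: 79 of the 421 and 42 of the 174 share their NCBI gene with another model of the run. The run of 9 lies at Scaffold1598:5709-189824 and holds 6 uncharacterized models, bromodomain-containing proteins 2 (g13141) and 3 (g13142) and 1 undescribed model, with log2 fold changes between -5.63 and -1.82. A run of 8 on Scaffold1062:192040-352634 holds 6 gene models described as ABHD11 or ABHD11-like, g9729 among them, between -6.24 and -4.55. The library kit marks the strand, but the strand setting used in counting is not given in the sources used here.

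Of 54 genes of the germ line and of maternal RNA control, 16, or 29.6%, fell (without 1 library: 5, 8, 13 and 7) and 2, or 3.7%, were called higher (without 1 library: 2, 0, 2 and 0), against 10.3% and 7.49% of all gene models tested, with a median of -0.69. The number of falls depended on single libraries. A CCR4-NOT subunit 6-like gene (g27048), of the complex that removes poly(A) tails, stood at 49.3 and 56.2 CPM at early stage 5, against 316 and 440.3 CPM at stage 3 (log2 fold change -2.84 ± 0.29, adjusted p = 1.58e-05). The argonaute-4-like gene (g12799), of small RNA silencing, stood at 114 and 159 CPM, against 356 and 480 CPM (log2 fold change -1.61 ± 0.26, adjusted p = 0.000519). Maelstrom (g6477), which protects germ cells from transposons in Drosophila, stood at 62.7 and 78.7 CPM, against 171 and 232 CPM (log2 fold change -1.51 ± 0.25, adjusted p = 0.000672). The call was lost without the early stage 5 library of 29D. Bicaudal C (g11292), a repressor of translation in Drosophila oocytes, was at 2.13 and 1.89 CPM at early stage 5, against 11.0 and 11.0 CPM at stage 3 (log2 fold change -2.43 ± 0.42, adjusted p = 0.000864). It was not called without the early stage 5 library of 29G. At stage 2 it had 1114 and 1076 CPM. The CCR4-NOT subunits 7-like (g8341, 1.47 ± 0.28; the call was lost without the early stage 5 library of 29G or the stage 3 library of 29G) and 4 (g18261, 1.06 ± 0.24; the call was lost without the early stage 5 library of 29G or the stage 3 library of either female) were the 2 called higher.

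Core histones and H1 took 0.694% and 0.467% of counts at early stage 5, against 1.43% and 1.18% at stage 3. Of 16 tested, 6 fell (without 1 library: 5, 4, 4 and 5) and 2 rose, with a median of 0.24. These shares were 37.5% and 12.5%, against 10.3% and 7.49% of all gene models tested. Histone H2B (g17398) stood at 387 and 219.7 CPM at early stage 5, against 2719 and 2717 CPM at stage 3 (log2 fold change -3.16 ± 0.36, adjusted p = 3.71e-05). H2A (g17399) was at 476 and 116 CPM, against 2002 and 1551 CPM (log2 fold change -2.59 ± 0.49, adjusted p = 0.00154). H3 (g12366) was at 90.0 and 19.8 CPM, against 1088 and 793 CPM (log2 fold change -4.09 ± 0.53, adjusted p = 0.000103). H4 (g17400) stood at 1333 and 536 CPM, against 2789 and 2655 CPM. Without the early stage 5 library of 29G or the stage 3 library of either female it did not pass. The H1 model g10574 had 140.2 and 168 CPM, against 53.3 and 78.3 CPM and was called higher, where the call was lost without the early stage 5 library of 29G or the stage 3 library of 29D. Histone RNAs that lack a poly(A) tail are not captured by poly(A) selection, and copies of a histone share sequence, so these levels are uncertain.

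Cell cycle and DNA replication genes had 8 of 116 called higher (without 1 library: 5, 3, 3 and 1) and 17 lower (without 1 library: 7, 8, 17 and 9), with a median of -0.28. These shares were 6.9% and 14.7%, against 7.49% and 10.3% of all gene models tested. Cyclin B-like (g8469), which drives entry into mitosis, stood at 326 and 322 CPM at early stage 5, against 1187 and 1322 CPM at stage 3 (log2 fold change -1.95 ± 0.25, adjusted p = 9.48e-05). The M-phase inducer phosphatase 1-B (g1671), a Cdc25 activator of mitosis, was at 124 and 111 CPM, against 415 and 630.1 CPM (log2 fold change -2.15 ± 0.31, adjusted p = 0.000252). Cyclin D2 (g11246), of the G1 phase, was called higher at 14.9 and 15.9 CPM, against 1.64 and 1.13 CPM (log2 fold change 3.45 ± 0.64, adjusted p = 0.00168). Leaving out the stage 3 library of either female ended the call. Kinetochore protein zw10 had 2 gene models that fell (g17993, -2.18 ± 0.22; g19775, -2.38 ± 0.3). Of 112 chromatin regulators 4 rose (without 1 library: 3, 2, 2 and 2) and 9 fell (without 1 library: 2, 4, 7 and 4). Their shares, 3.57% and 8.04%, were below those of all gene models tested. The remodeller Mi-2 homologue (g7368, 1.98 ± 0.28) and the histone acetyltransferase KAT8 (g26773, 2.12 ± 0.29) were among those that rose.

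Most of this change also occurred in fuchi pRNAi embryos, so the change in untreated embryos was set against theirs. The gene models called higher had a median log2 fold change of 1.89 in untreated embryos and 1.57 in fuchi pRNAi embryos, and those called lower had -2.27 and -2.25, against -0.05 and -0.07 for all tested. The fitted change in fuchi pRNAi embryos was above 0 for 961 of the 1086 called higher and for 10 of the 1500 called lower. Over all tested it was above 0 for 6806 of 14498, or 46.9%. fuchi RNA stood at 276 and 308 CPM at early stage 5, against 227 and 229 CPM at stage 3, in untreated embryos, and at 123 and 110 CPM, against 55.4 and 52.1 CPM, in fuchi pRNAi embryos. The difference between the 2 changes passed for 33 gene models that rose more, or fell less, in untreated embryos (0.228%) and for 6 in the opposite direction (0.0414%). Without the early stage 5 library of 29D or of 29G these counts were 21 and 12, with 2 and 0 in the opposite direction, and without the stage 3 library of 29D or of 29G they were 13 and 12, with 0 and 0. None of the 6 kept its call without any 1 of these 4 libraries, and the 2 called in 1 such fit were other gene models. With the female as a replicate block they were 88 and 11. Of the 33, 25 were called higher in untreated embryos, 1 was called lower and 7 were not called, and 27 fell at least 2-fold by fit in fuchi pRNAi embryos.

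Of the 33, 9 are uncharacterized or have no description, and described ones of smallest p are given singly. The first 5 given here kept the call without each of the 4 libraries in turn. Retinal dehydrogenase 1-like (g2991), which oxidises retinal, had 89.2 and 70.6 CPM at early stage 5, against 53.0 and 61.0 CPM at stage 3 in untreated embryos, and 1.57 and 1.34 CPM at early stage 5, against 22.5 and 28.2 CPM at stage 3 in fuchi pRNAi embryos (difference 4.57 ± 0.38, adjusted p = 0.000310). Microsomal triglyceride transfer protein (g26038), which loads lipid onto lipoproteins, had 24.4 and 24.2 CPM, against 11.0 and 9.84 CPM in untreated embryos, and 0.143 and 0.448 CPM at early stage 5, against 12.7 and 14.1 CPM at stage 3 in fuchi pRNAi embryos (difference 6.79 ± 0.7, adjusted p = 0.000711). In both genes the untreated change itself was not called and the fuchi pRNAi early stage 5 libraries were near 0. Fucosyltransferase A (g15249), which adds fucose to glycoproteins, gave 25.1 and 29.4 CPM, against 27.1 and 20.0 CPM in untreated and 0.857 and 1.12 CPM at early stage 5, against 25.6 and 48.2 CPM at stage 3 in fuchi pRNAi embryos (difference 5.43 ± 0.54, adjusted p = 0.000603).

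The receptor protein trapped in endoderm-1 (g18584), whose Drosophila homologue guides migrating germ cells, rose in untreated embryos (179 and 213 CPM at early stage 5, against 9.86 and 10.5 CPM at stage 3; log2 fold change 4.27 ± 0.43, adjusted p = 1.57e-05) and stood at 2.43 and 0.896 CPM at early stage 5, against 5.18 and 11.5 CPM at stage 3 in fuchi pRNAi embryos (difference 6.47 ± 0.65, adjusted p = 0.000603). Prolyl endopeptidase FAP-like (g4630), a serine peptidase, rose in untreated embryos to 198 and 229 CPM, against 41.6 and 27.6 CPM and stood at 18.1 and 10.1 CPM at early stage 5, against 63.5 and 64.8 CPM at stage 3 in fuchi pRNAi embryos (difference 4.79 ± 0.45, adjusted p = 0.000442). The delta-like ligand g12734, given above, differed as well (difference 3.65 ± 0.53, adjusted p = 0.00655), a call lost without the early stage 5 library of either female or the stage 3 library of 29G. So did dipeptidyl peptidase 1 g3230 (difference 3.98 ± 0.58, adjusted p = 0.00671), a call lost without any 1 of the 4 libraries. Among the 6 in the opposite direction, the chitin-binding protein obstructor-E (g13591) had 6.39 and 4.72 CPM, against 3.01 and 5.16 CPM in untreated and 65.4 and 118 CPM at early stage 5, against 3.79 and 2.42 CPM at stage 3 in fuchi pRNAi embryos (difference -4.4 ± 0.67, adjusted p = 0.00829). Like the other 5, it was not called without any 1 of the 4 untreated libraries.

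**Figure D5:**
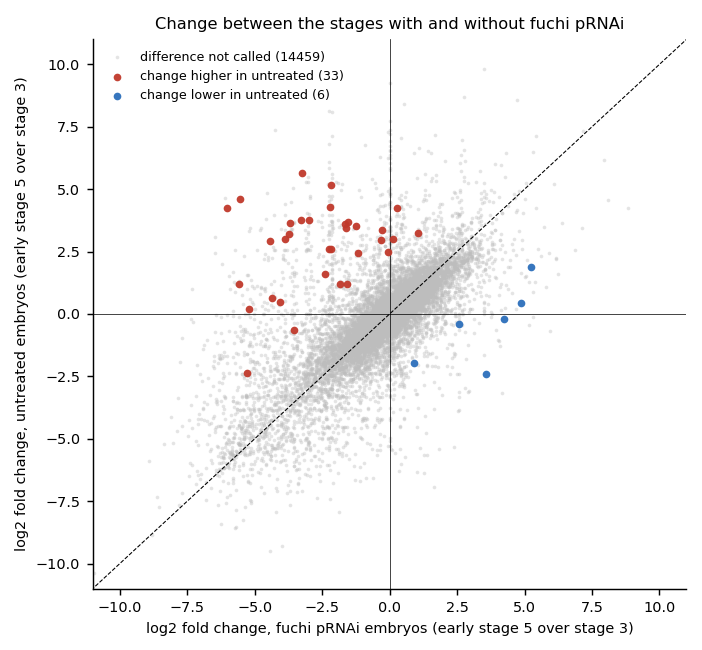
Log2 fold change between early stage 5 and stage 3 in untreated embryos (vertical axis) against that in fuchi pRNAi embryos (horizontal axis) for the gene models tested, with the line of equal change dashed. Red points are the 33 whose change was higher in untreated embryos by test and blue points the 6 whose change was lower; 27 of the 33 lie left of a log2 fold change of -1 in fuchi pRNAi embryos.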

How the data were processed

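Whole-embryo poly(A) RNA was measured in 12 libraries, and the comparison concerned 4 of them. The deposited counts are whole reads per gene model, which the authors obtained with HTSeq (version 0.6.1p1, per the labels) for AUGUSTUS models on assembly Ptep_1.0. Which aligner and which strand setting were used was not given in the sources at hand. RPKM values, as deposited, were made by the authors from these counts, scaled to gene length and library size, and were used only to rank levels and as an alternative. Gene descriptions, scaffolds and positions came from the deposited tables. Totals over the 12 libraries ran from 5662766 to 8857990 counts, and intervals beyond the spread between libraries were not computed.

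All 12 libraries in 6 groups entered 1 fit (edgeR 4.0.16 in R 4.3.3, TMM, quasi-likelihood F test, Benjamini-Hochberg adjustment over the 14498 gene models that reached 1 CPM in any library). This left 6 residual degrees of freedom, with a biological coefficient of variation of 0.299. A call needed an adjusted p below 0.01 and a fold change of at least 2. The SE given after ± was taken as |log2 fold change| over the square root of the F statistic. The change in untreated embryos was set against that in fuchi pRNAi embryos as an interaction contrast of the same fit. The fitted change of a gene at 0 in both libraries of a stage depends on the prior count, and bounds use 3 counts over those libraries.

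Same-numbered libraries came from the same female, so the numbers pair the samples. The differences between females correlated over gene models with r = 0.436 between untreated stage 3 and early stage 5, and with r from 0.0274 to 0.553 over the 15 pairs of groups. The main fit held no term for the female, since the study's methods name edgeR and state no such term, and a fit with it was an alternative. Other alternatives were fits of fewer libraries, size factors of the relative log expression kind, DESeq2 1.42.0, a likelihood ratio test, no filter, a test against 2-fold, limma 3.58.1 on log2 of RPKM plus 1 or plus 0.1, and leaving out each library. Scaling by total counts and leaving out g20563, whose share differs between the females, were added after seeing the data. The count script was tested on simulated data.

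The members and gene lists were chosen with earlier results of these data known. Genes were named if they belonged to a list given by gene model number, if they were among the 12 described calls of smallest p, the 8 of largest CPM difference or the 5 undescribed calls of smallest p in each direction, if they were among up to 4 calls of smallest p in each direction of a keyword list, or if they were among the 8 of smallest p in the interaction in each direction. A fall named by this rule is not reported here. Further members of the Notch, BMP, Wnt and other short lists were named after their values were seen.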

Additional observations from a re-analysis of the deposited data

Results flagged for a closer look

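For 14 gene models with the smallest p in each direction, the change from stage 3 to early stage 5 differed between untreated and fuchi pRNAi embryos by the interaction test of edgeR; values are the untreated log2 change minus the fuchi pRNAi one. They were picked from 39 calls among 14498 tested, so their sizes are those of extremes.

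The change was higher in untreated embryos for 8, each called also without each of the 4 untreated libraries in turn. Retinal dehydrogenase 1-like (g2991) differed by 4.57, microsomal triglyceride transfer protein (g26038) by 6.79, fucosyltransferase A (g15249) by 5.43, trapped in endoderm-1 (g18584) by 6.47 and prolyl endopeptidase FAP-like (g4630) by 4.79, with the levels given in the report. The uncharacterized g2117 differed by 6.91, with 442 and 537 CPM, against 43.4 and 64.2 CPM in untreated embryos and 2.14 and 3.14 CPM at early stage 5, against 20.0 and 48.6 CPM at stage 3 in fuchi pRNAi embryos (difference 6.91 ± 0.6, adjusted p = 0.000310). A sodium-coupled neutral amino acid transporter 7 model (g18058), which carries amino acids across membranes, differed by 5.26, with 22.5 and 19.4 CPM, against 1.51 and 1.94 CPM in untreated embryos and 1.000 and 0.672 CPM at early stage 5, against 1.89 and 3.79 CPM at stage 3 in fuchi pRNAi embryos (difference 5.26 ± 0.57, adjusted p = 0.00104). Glutathione peroxidase-like (g20835), which reduces peroxides, differed by 2.92, with 115 and 135 CPM, against 173 and 215 CPM in untreated embryos and 13.7 and 11.7 CPM at early stage 5, against 141 and 159 CPM at stage 3 in fuchi pRNAi embryos (difference 2.92 ± 0.33, adjusted p = 0.00132).

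The change was lower in untreated embryos for 6, none of them called without any 1 of the 4 untreated libraries, of which obstructor-E (g13591) differed by -4.40. Triadin-like (g6466) differed by -3.34, with 32.6 and 21.0 CPM, against 6.57 and 7.91 CPM in untreated embryos and 87.6 and 81.8 CPM at early stage 5, against 2.59 and 1.82 CPM at stage 3 in fuchi pRNAi embryos (difference -3.34 ± 0.47, adjusted p = 0.00555). A gene model described as buccalin (g11206), a neuropeptide of molluscs, differed by -6.01, with 3.50 and 5.66 CPM, against 18.2 and 30.8 CPM in untreated embryos and 31.9 and 132.2 CPM at early stage 5, against 8.47 and 5.00 CPM at stage 3 in fuchi pRNAi embryos (difference -6.01 ± 0.89, adjusted p = 0.00671). The uncharacterized g19865, g4051 and g26167 differed by -2.97, -4.46 and -2.89. The most abundant was g26167, with 349.7 and 338 CPM, against 1527 and 1182 CPM in untreated embryos and 1679 and 1988 CPM at early stage 5, against 1329 and 626 CPM at stage 3 in fuchi pRNAi embryos (difference -2.89 ± 0.45, adjusted p = 0.00856).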

How the results depend on the processing

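With 2 libraries a stage, leaving out 1 library gave 515 to 651 gene models called higher at early stage 5 and 800 to 1104 called lower, against 1086 and 1500. A lone library of a stage was then assumed to vary like the other groups. The test against 2-fold gave 359 and 677 (34.7% higher), all of them also called before. With the female as a replicate block 1537 were called higher and 1884 lower, holding all of the 1086 and 1499 of the 1500, and the block moved none of these counts by over 1.5 times. The other fits and scalings gave 724 to 1538 higher and 1264 to 2057 lower, with 42.0% to 47.8% of calls higher except under total counts (26%) and on log2 of RPKM plus 1 (32.8%) or plus 0.1 (29.0%).

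For the difference between the untreated and the fuchi pRNAi change, 33 and 6 gene models were called. The replicate block gave 88 and 11, the likelihood ratio test 132 and 27, no filter 188 and 59, DESeq2 120 and 21, the 8 libraries of both stages alone 34 and 3, and total counts 45 and 2. Leaving out 1 library gave 12 to 21, all among the 33, and 0 to 2, none among the 6. Of 141 named gene models called higher and 116 called lower, 92 and 78 kept the call without each library in turn, and 7 and 9 lost it without every one. No named gene model that was called changed direction under any alternative that could be fitted. Depth limits genes under about 1 CPM, where a library holds few counts.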

Other observations

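Some lists changed little as groups but held strong single changes. Of 71 extracellular matrix genes 1 was called higher and 4 lower (without 1 library: 3, 3, 3 and 3 lower), and 3 of the falls were papilins, proteins of the basement membrane. The papilin model g4726 stood at 27.1 and 31.1 CPM at early stage 5, against 279 and 369.8 CPM at stage 3 (log2 fold change -3.48 ± 0.25, adjusted p = 1.38e-06), g4424 at 23.3 and 7.36 CPM, against 753 and 567 CPM (log2 fold change -5.41 ± 0.51, adjusted p = 9.12e-06) and g15203 changed by -2.9 ± 0.61, where the call was lost without any 1 of the 4 libraries. Among 111 P450s and conjugating enzymes 4 were called higher (without 1 library: 1, 1, 0 and 2) and 3 lower (without 1 library: 1, 2, 1 and 3). The mitochondrial P450 302a1 (g25773), whose insect homologue makes ecdysteroids, stood at 7.91 and 4.34 CPM, against 115 and 149 CPM (log2 fold change -4.41 ± 0.34, adjusted p = 2.01e-06). Of 37 apoptosis genes 1 was called higher (without 1 library: 0, 0, 0 and 0) and 4 lower (without 1 library: 2, 1, 2 and 2), among them a putative inhibitor of apoptosis (g1914, -1.83 ± 0.28). The shares higher and lower were 1.41% and 5.63% of the matrix list and 3.6% and 2.7% of the P450 list. In the apoptosis list they were 2.7% and 10.8%, and over all gene models tested 7.49% and 10.3%.

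Of 94 secreted peptidases 6 were called higher (without 1 library: 5, 3, 3 and 3) and 15 lower (without 1 library: 7, 8, 11 and 11). As shares these were 6.38% and 16%, against 7.49% and 10.3% of all gene models tested. Carboxypeptidase B (g4767), a digestive-type peptidase, stood at 14.6 and 6.23 CPM at early stage 5, against 406 and 364 CPM at stage 3 (log2 fold change -5.19 ± 0.35, adjusted p = 9.55e-07), and matrix metalloproteinase-21 (g5702) at 7.001 and 17.2 CPM, against 0.274 and 0.484 CPM, where the call was lost without the early stage 5 library of 29G or the stage 3 library of 29D. Undescribed gene models also led the rises. The model g9243 stood at 1167 and 955 CPM, against 108 and 117 CPM (log2 fold change 3.24 ± 0.22, adjusted p = 1.05e-06) and g471 at 2050 and 2100 CPM, against 299.6 and 304 CPM (log2 fold change 2.78 ± 0.22, adjusted p = 2.30e-06). The model g5 stood at 39.7 and 43.6 CPM, against 2.88 and 2.74 CPM (log2 fold change 3.88 ± 0.32, adjusted p = 3.47e-06) and at 61.6 and 79.0 CPM at stage 2, so its stage 3 level was the lowest of the 3 stages in both females.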
